A study of Mus musculus with 12 samples.

Results

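Of the 49315 genes in a table of RNA-seq counts from splenic T cells, 8 are described here, namely Vcan, F10, C1rl, Clec5a, Nrg1, Tgfbi, Met and Sgms2. They were chosen because their level was higher after angiotensin II (Ang II) than after sham treatment in both genotypes of the study, so that the 2 differences between Ang II and sham describe the choice, and no test of them counts as support. By DESeq2, the tool of the study, 18 of 13030 genes with an adjusted p in both genotypes met that rule (0.138%), and the 8 are among them. They were picked from the 18 with their values known. T cells were taken from the spleens of male mice by magnetic negative selection, giving 12 libraries, 1 for each of 3 mice in the 4 groups. The mice were 12 weeks old when the infusion began. WT sham mice were wild type and received vehicle from an osmotic minipump over 14 days. WT Ang II mice were wild type and received Ang II from the same kind of pump over 14 days, at a daily dose of 490 ng/kg. The mice of the groups miR-214-/- sham and miR-214-/- Ang II received the same treatments and were knockouts for miR-214, with no restriction to T cells given in the labels. All 4 groups carried a minipump. A negative selection removes unwanted cells by their surface markers and can leave some of them behind.

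Ang II is the peptide of the renin system that constricts arteries and raises blood pressure, and its infusion is a model of hypertension in which T cells take part. None of the 8 genes is a marker of T cells. Vcan and Tgfbi code for secreted matrix proteins, F10 and C1rl for secreted serine proteases of blood clotting and of the complement family, and Clec5a and Met for receptors at the cell surface. Nrg1 codes for a growth factor of ErbB receptors and Sgms2 for an enzyme of membrane lipids. Several of them, Vcan and Clec5a foremost, are known from monocytes and other myeloid cells, and F10 is best known from the liver.

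Libraries held between 21126874 and 29605988 counts, and levels are given as CPM, counts scaled to a common library size by the TMM method of edgeR. T cell genes were present at high level in every library, so the labelled cell type was the main content. The summed CPM of 16 T cell markers was nevertheless lower in WT Ang II, at 5614 to 6380, than in WT sham, at 8220 to 9287. It was 7964 to 9472 in miR-214-/- sham and 6192 to 8445 in miR-214-/- Ang II. In bulk RNA, fewer cells of a type and less RNA per cell cannot be told apart. Markers of monocytes, of neutrophils and their precursors and of red-cell precursors were also present in all 12 libraries, and their levels are given with those of the 8 genes.

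Vcan codes for versican, a large chondroitin sulphate proteoglycan of the loose extracellular matrix that binds hyaluronan. The gene lies at chr13:89655312-89742509 of GRCm38 on the minus strand. In WT sham, Vcan was close to absent, with 1, 0 and 4 counts or 0.0436, 0 and 0.182 CPM in replicates 1, 2 and 3. In WT Ang II it was at 3.13, 0.428 and 6.65 CPM. Replicate 2 of WT Ang II, at 12 counts, was far below the other two, and still above every WT sham library. In miR-214-/- sham Vcan was at 0.332, 0.279 and 0.179 CPM, and in miR-214-/- Ang II it was at 0.434, 5.97 and 7.12 CPM. Replicate 1 of miR-214-/- Ang II, at 11 counts, was near the highest sham library of its genotype, at 8 counts, and the groups did not overlap only by that small margin. The log2 fold change of Ang II over sham by edgeR was 5.49 ± 1.26 (SE, n = 3 per group) in WT and 4.08 ± 0.98 in miR-214-/-. In WT it was 7.07 without WT sham replicate 3 and 4.55 without WT Ang II replicate 3. Summed over libraries, 5 sham counts stood against 258 Ang II counts in WT, a ratio of 45.1 with an exact 95% interval of 19.1 to 140, and 19 stood against 339 in miR-214-/-, a ratio of 17.3 with an interval of 10.9 to 29.1. These intervals cover counting error only and not the spread between mice.

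F10 codes for coagulation factor X, the vitamin K-dependent zymogen whose active form cleaves prothrombin. The gene lies at chr8:13037308-13056676 of GRCm38 on the plus strand. It was at 0.654, 1.71 and 2.19 CPM in WT sham and at 18.7, 4.89 and 12.2 CPM in WT Ang II. For miR-214-/- sham it was at 6.15, 2.28 and 2.65 CPM, and in miR-214-/- Ang II at 7.70, 14.0 and 13.3 CPM. Every Ang II library was above every sham library of its genotype, with the narrowest gap in miR-214-/-, where sham replicate 1 and Ang II replicate 1 differed by a ratio of 1.25. The log2 fold change was 3.00 ± 0.60 in WT and 1.66 ± 0.43 in miR-214-/-. After Ang II the mean F10 level was 11.9 ± 6.89 CPM in WT and 11.7 ± 3.45 CPM in miR-214-/- (SD, n = 3).

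The promoters of these 2 lead genes, and those of C1rl and Met, are shown because the 4 genes shared the difference by which they were chosen and begin at start sites of different make-up. Each sequence holds 250 bases before and 50 bases from the annotated start of transcription, from the RefSeq promoter table of GRCm38.p6, and is written 5′ to 3′ on the strand of the gene. Capitals mark matches, on either strand, to the letters searched: GGAAGT (the core of PU.1 sites), TTGCNNAA (C/EBP), TGANTCA (AP-1), TGTGGT (RUNX), GGGCGG (SP/KLF) and CAGNTG (E-box).
Vcan, chr13:89742463-89742762, minus strand: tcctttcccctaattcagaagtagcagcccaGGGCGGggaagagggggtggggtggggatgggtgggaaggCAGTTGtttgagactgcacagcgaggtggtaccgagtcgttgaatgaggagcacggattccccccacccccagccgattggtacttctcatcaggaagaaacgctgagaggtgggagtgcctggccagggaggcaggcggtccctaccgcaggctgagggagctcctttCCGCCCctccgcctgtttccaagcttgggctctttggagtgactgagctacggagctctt
F10, chr8:13037058-13037357, plus strand: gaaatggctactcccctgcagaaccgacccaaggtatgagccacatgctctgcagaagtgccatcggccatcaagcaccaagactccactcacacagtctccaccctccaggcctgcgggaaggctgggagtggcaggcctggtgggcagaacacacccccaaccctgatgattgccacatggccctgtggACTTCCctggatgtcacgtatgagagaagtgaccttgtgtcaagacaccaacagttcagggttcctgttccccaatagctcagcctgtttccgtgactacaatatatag
C1rl, chr6:124492863-124493162, plus strand: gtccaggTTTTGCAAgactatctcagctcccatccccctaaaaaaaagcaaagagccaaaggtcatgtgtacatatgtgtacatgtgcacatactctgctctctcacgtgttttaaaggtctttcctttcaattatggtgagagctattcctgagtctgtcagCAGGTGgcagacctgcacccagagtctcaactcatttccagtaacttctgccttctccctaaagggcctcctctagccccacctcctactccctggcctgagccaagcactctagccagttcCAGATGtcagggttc
Met, chr6:17463707-17464006, plus strand: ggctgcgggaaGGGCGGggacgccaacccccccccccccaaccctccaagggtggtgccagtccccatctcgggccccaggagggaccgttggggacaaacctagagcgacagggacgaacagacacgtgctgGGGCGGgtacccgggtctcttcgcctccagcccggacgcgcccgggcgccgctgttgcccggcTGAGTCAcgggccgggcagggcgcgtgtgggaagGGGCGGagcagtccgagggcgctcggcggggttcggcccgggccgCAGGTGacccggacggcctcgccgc
The Vcan promoter held GGGCGG on either strand and 1 E-box, and its GC content was 61%. The F10 promoter held a single match, ACTTCC, which is GGAAGT on the minus strand, 59 bases before the start. The C1rl promoter held a C/EBP match and 2 E-boxes, and the Met promoter, with a GC content of 75.7%, held GGGCGG at 3 places, an AP-1 match and an E-box. No matches to different motifs shared a base.

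Promoters were in the table for 7 of the 8 genes, and Sgms2 had 6 start sites. Nrg1 was not matched. None of the 6 motifs was found in all of the matched genes. A gene was counted if any of its start sites held the letters, whereas the percentages are per single promoter. With 6 start sites Sgms2 had more room to match, so the counts and the percentages are not like for like. E-boxes were found for 5 genes and in 51.4% of all 32851 promoters of the table. GGGCGG was found for 4 genes and in 35.7% of promoters, GGAAGT for F10 and Sgms2 and in 23.8%, and TGTGGT for Clec5a and Sgms2 and in 16.8%. The C/EBP letters were found for C1rl alone and in 10.8% of promoters, and the AP-1 letters for Met and Sgms2 and in 7.81%. The median GC content of all promoters was 52.7%, and the start sites of the 7 genes ranged from 39% to 77.7%, both from Sgms2. Such matches describe the letters in the window and not the binding of a factor.

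C1rl, the gene of a serine protease related to complement C1r, lies at chr6:124493113-124510643 on the plus strand. It was at 0.524, 0.714 and 0.501 CPM in WT sham and at 8.57, 2.28 and 5.89 CPM in WT Ang II. In miR-214-/- it was at 1.62, 1.11 and 1.86 CPM in sham and at 4.07, 6.11 and 5.02 CPM in Ang II. Among the 8 genes it had the widest gap between groups in both genotypes, since the lowest Ang II library was 3.19 times the highest sham library in WT and 2.18 times in miR-214-/-. The log2 fold change was 3.28 ± 0.52 in WT and 1.72 ± 0.27 in miR-214-/-.

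Tgfbi codes for a matrix protein that is induced by TGF-β in many cells and that binds integrins and collagens, at chr13:56609523-56639562 on the plus strand. It had the highest level of the 8 per kilobase of exon, as given further on. Tgfbi was at 23.4, 20.2 and 12.2 CPM in WT sham and at 112, 30.8 and 78.3 CPM in WT Ang II. It was at 31.6, 21.8 and 32.6 CPM in miR-214-/- sham and at 35.1, 75.0 and 78.5 CPM in miR-214-/- Ang II. The groups were apart in both genotypes, though in miR-214-/- Ang II replicate 1 exceeded the highest sham library by a ratio of 1.08 only. The log2 fold change was 2.02 ± 0.48 in WT and 1.13 ± 0.31 in miR-214-/-. Both were the smallest among the 8 genes.

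Clec5a codes for a C-type lectin receptor of myeloid cells that signals through the adaptor Tyrobp (DAP12), at chr6:40574894-40585821 on the minus strand. It was at 2.01, 1.79 and 1.28 CPM in WT sham and at 20.3, 4.49 and 11.8 CPM in WT Ang II. In miR-214-/- it was at 4.15, 1.49 and 5.23 CPM in sham and at 6.75, 12.7 and 10.1 CPM in Ang II. Replicates 1 and 3 of miR-214-/- sham were already near WT Ang II replicate 2, and the log2 fold change was 2.87 ± 0.55 in WT and 1.44 ± 0.45 in miR-214-/-.

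Nrg1 codes for neuregulin 1, the ligand of ErbB3 and ErbB4, and spans 1069479 bases at chr8:31814551-32884029 on the minus strand. It was at 0.567, 1.19 and 1.002 CPM in WT sham and at 14.0, 3.601 and 9.19 CPM in WT Ang II. In miR-214-/- it was at 3.74, 1.07 and 2.94 CPM in sham and at 5.05, 6.51 and 8.38 CPM in Ang II. The miR-214-/- sham libraries reached higher than WT sham, and the log2 fold change was 3.29 ± 0.55 in WT and 1.36 ± 0.44 in miR-214-/-.

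Met codes for the receptor of hepatocyte growth factor, at chr6:17463800-17573980 on the plus strand. Its WT sham libraries were nearly equal, at 2.27, 2.42 and 2.46 CPM, and its WT Ang II libraries were at 20.6, 5.06 and 10.7 CPM. In miR-214-/- it was at 3.28, 2.60 and 4.87 CPM in sham and at 11.1, 6.04 and 7.38 CPM in Ang II. Met was the single gene of the 8 that was highest, and not lowest, in replicate 1 of miR-214-/- Ang II. The log2 fold change was 2.37 ± 0.49 in WT and 1.19 ± 0.32 in miR-214-/-.

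Sgms2 codes for sphingomyelin synthase 2, the enzyme that makes sphingomyelin from ceramide at the plasma membrane, at chr3:131318985-131491411 on the minus strand. It was at 1.92, 2.22 and 1.503 CPM in WT sham and at 15.4, 5.67 and 10.9 CPM in WT Ang II. In miR-214-/- it was at 3.41, 2.18 and 5.48 CPM in sham and at 7.19, 10.2 and 7.68 CPM in Ang II. The groups did not overlap in either genotype, and the log2 fold change was 2.52 ± 0.39 in WT and 1.18 ± 0.34 in miR-214-/-.

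**Figure D1:**
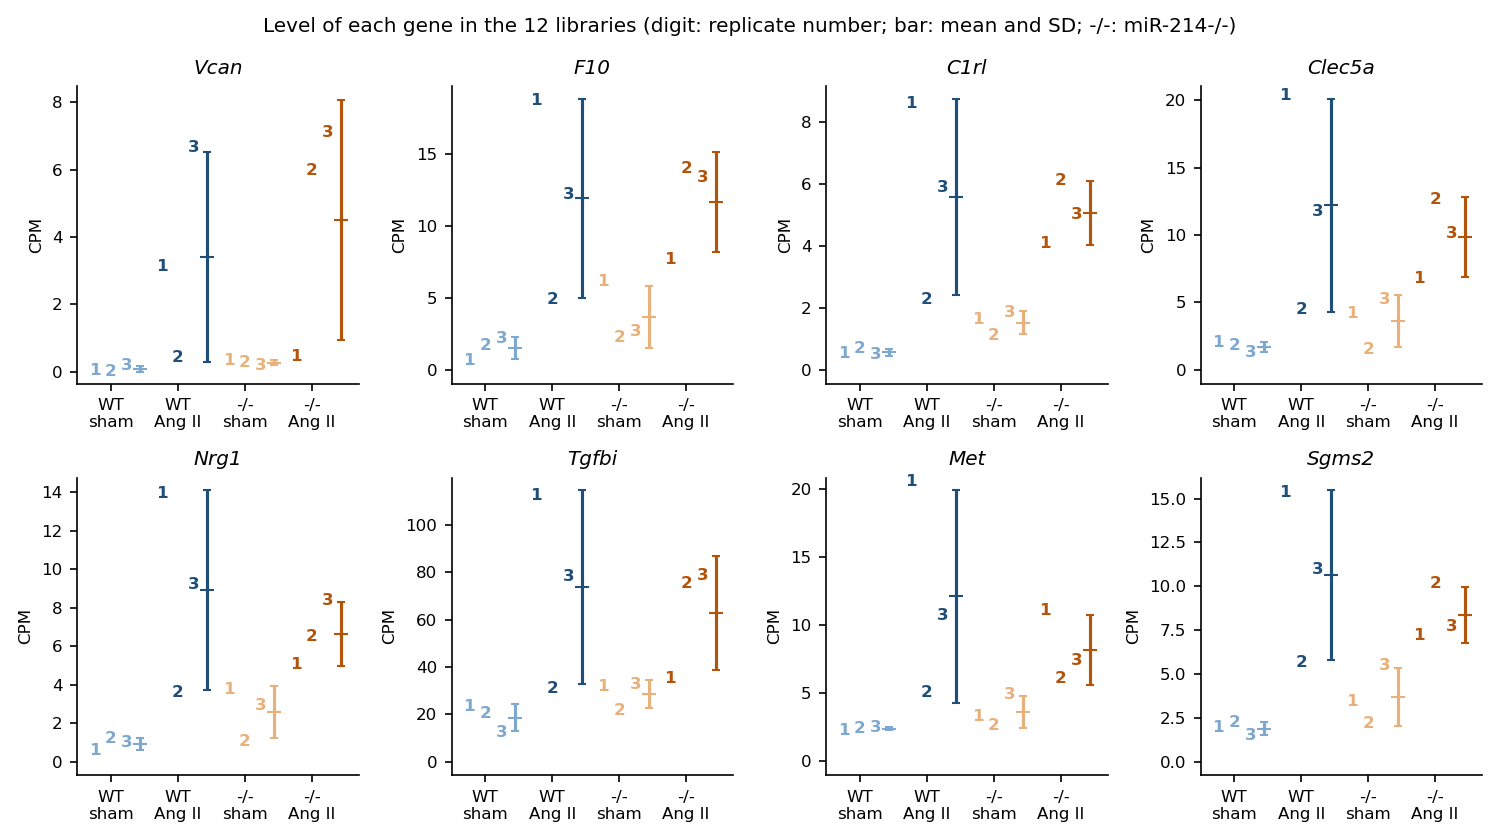
Level of each of the 8 genes in CPM (vertical axis, linear) in the 4 groups, with a digit for each library (its replicate number) and a bar for the group mean and SD (n = 3). In every panel all Ang II libraries stand above all sham libraries of the same genotype, replicate 2 is the lowest of WT Ang II, and the highest miR-214-/- sham digit lies above the highest WT sham digit.

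Within a group, most of the genes were high in the same libraries. Replicate 1 of WT Ang II was the highest of its group for 7 of the 8 genes, with Vcan the exception, and replicate 2 was the lowest for all 8. The summed CPM of the 8 genes in WT Ang II was 213, 57.2 and 146 in replicates 1, 2 and 3, against 21.3 to 31.4 in WT sham. In miR-214-/- Ang II the sums were 77.4, 136 and 138, against 32.8 to 55.8 in miR-214-/- sham, and replicate 1 was the lowest of its group for 7 genes. Within WT Ang II the highest library was 2.71 times the lowest for Sgms2, 4.52 times for Clec5a and 15.5 times for Vcan. The spread between mice given Ang II was wide in WT for each of these.

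All 8 genes had groups that did not overlap in WT and in miR-214-/-, as did 19.1% of the 16012 genes tested in WT and 8.86% of the 15937 tested in miR-214-/-. Of 15622 genes tested in both, 3.82% had Ang II above sham without overlap in each. By edgeR all 8 were called higher in WT, where 7.01% of genes were called higher and 7.3% in either direction, at an adjusted p under 0.05 and a log2 fold change over 1 in size, and DESeq2 called 7.98% higher and 8.21% in either direction. At an unadjusted p under 0.05 by edgeR, 19.8% of genes were higher in WT and 5.82% in miR-214-/-. In miR-214-/- edgeR called none of the 8, with 0% of genes called, although 1939 genes had an unadjusted p under 0.05, whereas DESeq2 called all 8, with 0.215% of genes called higher and 0.391% in either direction. Since the genes were chosen by these differences, nothing is read from their counts. The median log2 fold change of the 8 was 2.94 in WT and 1.40 in miR-214-/-, against -0.02 and 0.03 over all genes tested.

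For the 10 other genes that met the rule by DESeq2, log2 fold changes lay between 1.35 and 3.45 in WT, and in miR-214-/- between 1.05 and 1.38. They hold Prtn3 and Ms4a3, genes of granulocyte precursors, with 3.20 and 3.45 in WT and 1.33 and 1.07 in miR-214-/-. Serpinb1a, an inhibitor of neutrophil proteases, was at 1.66 and 1.38, and Gda, the guanine deaminase, at 2.95 and 1.32. E2f2, a transcription factor of the cell cycle, was at 1.35 and 1.11 and B4galt6, which makes lactosylceramide, at 2.36 and 1.07. Abcd2, a transporter of the peroxisome, was at 2.19 and 1.19, Olfm1 at 1.99 and 1.05, Nhsl2 at 1.64 and 1.10, and Gm9733 at 1.96 and 1.37. A single gene, Vwce, was called lower in both. On the scale of these log2 fold changes Vcan stood above all 17 others in both genotypes.

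The limits of the rule fell close to some genes. Of the 8, the nearest to its limits were Tgfbi, with a log2 fold change of 1.14 by DESeq2 in miR-214-/-, and Nrg1, with an adjusted p of 0.036 by DESeq2. Just outside it were Adgrl4, with 1.97 in WT and 0.99 in miR-214-/-, and Mlkl, with 1.89 in WT, a value just over the limit in miR-214-/- and an adjusted p of 0.0517 by DESeq2 in the latter.

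**Figure D2:**
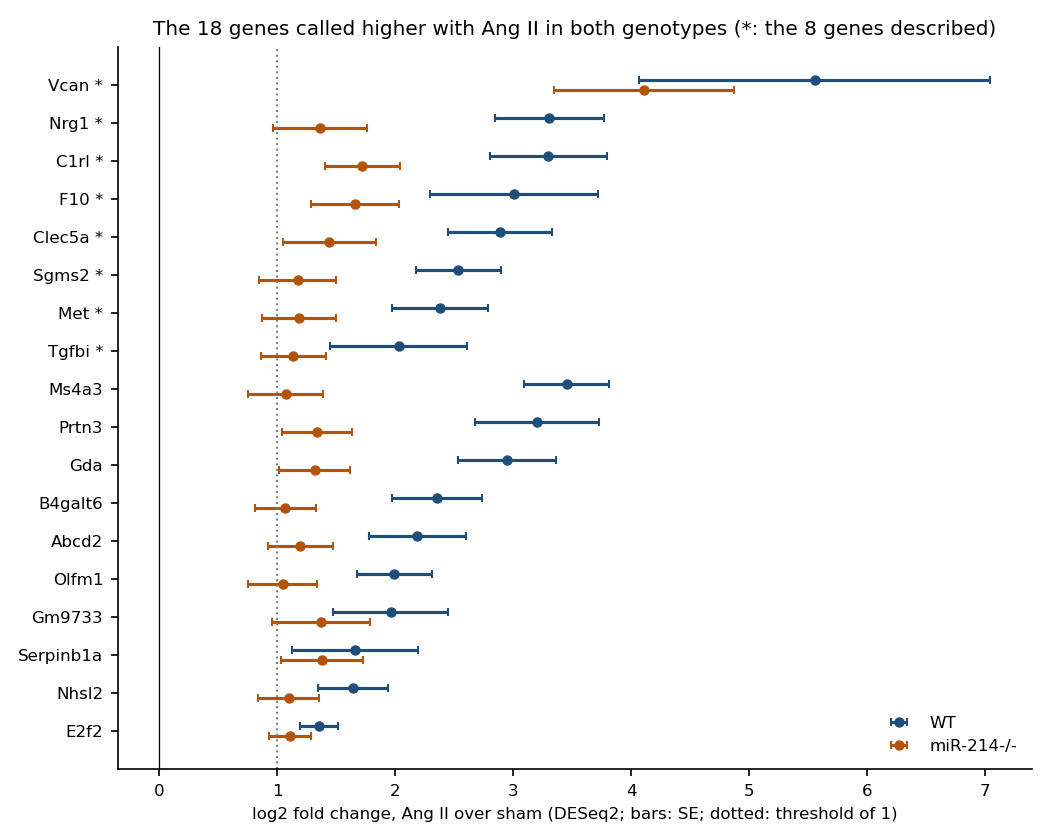
Log2 fold change of Ang II over sham by DESeq2 (horizontal axis, bars for SE, n = 3 per group) in WT and miR-214-/- for the 18 genes called higher in both genotypes, with an asterisk on the 8 genes described and a dotted line at the threshold of 1. Each gene has a larger value in WT than in miR-214-/-, and Vcan is the highest in both, at 5.56 and 4.11.

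Genotypes were then compared within each treatment. The choice of the 8 did not use these differences, but it used the values of the same libraries. The differences are thus not independent of the choice and are given as a description. In sham, 7 genes passed the filter on low counts and Vcan, at 0 to 8 counts in these libraries, did not. All 7 had higher values in miR-214-/- than in WT, by log2 differences of 0.59 for Met to 1.48 for Nrg1 with a median of 1.10, against a median of -0.01 over all genes tested. None was called by edgeR (adjusted p = 0.701 to 0.768), where 0% of genes were called higher and 3 genes (0.0189%) lower. DESeq2 called none of the 7 (adjusted p = 0.188 to 0.808), with 0.231% of genes called higher and 0.289% in either direction. All but Met, 6 of the 7, had an unadjusted p under 0.05 by edgeR, as did 4.26% of all genes in that direction. Several marker lists of other cells had medians of the same sign in sham. They were 1.44 for red-cell precursors, 1.43 for neutrophils and their precursors, 0.82 for cycling cells and 0.76 for plasma cells. Smaller ones were 0.57 for basophils and mast cells, 0.52 for megakaryocytes and platelets, 0.27 for classical monocytes and 0.02 for macrophages. Medians were negative for B cells (-1.25), NK cells (-0.26), T cells (-0.13), dendritic cells (-0.10), and non-classical monocytes and stroma (-0.06 each). No marker was called by edgeR in sham, and the part of these cells in the difference was not tested. The 7 genes moved together across libraries, so that their count is not a count of separate results.

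C1rl had the most even difference in sham, at 1.53 ± 0.381 CPM in miR-214-/- against 0.580 ± 0.117 CPM in WT (SD, n = 3), with a log2 difference of 1.39 ± 0.31 (SE) and an adjusted p by edgeR of 0.701. Nrg1 was at 2.58 ± 1.37 against 0.920 ± 0.320 CPM, with a log2 difference of 1.48 ± 0.49 and an adjusted p by edgeR of 0.701. F10 was at 3.69 ± 2.14 against 1.52 ± 0.783 CPM, with 1.28 ± 0.52 and an adjusted p by edgeR of 0.726. The groups did not overlap for F10, C1rl and Met, 3 of the 7, as for 5.39% of genes tested. For Clec5a, Nrg1, Tgfbi and Sgms2, replicate 2 of miR-214-/- sham lay within the range of WT sham, and that replicate was the lowest of its group for all of the 8 but Vcan.

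After Ang II no difference between the genotypes passed the test for these genes. The log2 difference of miR-214-/- over WT was between -0.57 for Met and 0.40 for Vcan, with a median of -0.28 over the 8 and 0.00 over all genes. None of the 8 was called by edgeR (adjusted p = 0.675 to 0.981) or by DESeq2 (adjusted p = 0.716 to 0.983), where edgeR called 0% of genes, with 1388 at an unadjusted p under 0.05 and 4.4% of all genes below it and higher, and DESeq2 called 0.143%, of which 0.0272% were higher. The groups overlapped for each of the 8, where 8.01% of genes were higher without overlap, and for all but Vcan, WT Ang II replicate 1 lay above and replicate 2 below every miR-214-/- library. An exact permutation test of 3 libraries against 3 cannot go below p = 0.1. Leaving out replicate 1 of WT Ang II turned the median of the 8 to 0.25, so that the sign of this difference rested on 1 library.

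The difference between the 2 genotypes in their Ang II effect, the interaction, is built from the same contrasts that chose the genes. Its sign was not fixed by the choice, but its values are not independent of it and are given as a description. All 8 had a smaller Ang II effect in miR-214-/- than in WT, by -0.86 for Tgfbi to -1.91 for Nrg1 on the log2 scale. So had all 18 genes that met the rule, by DESeq2. The median of the 8 was -1.35, against 0.01 over all genes, which were not chosen in this way. Most marker lists had negative medians too. They were -2.73 for red-cell precursors, -1.84 for neutrophils and their precursors, -1.69 each for cycling cells and plasma cells, and -1.32 for basophils and mast cells. Smaller ones were -0.72 for macrophages, -0.68 for megakaryocytes and platelets, -0.61 for classical monocytes, -0.36 for non-classical monocytes, -0.25 for stroma and -0.21 for dendritic cells. The medians of B cells, NK cells and T cells were positive, at 1.97, 0.51 and 0.46. No marker was called by edgeR for the interaction, and the part of these cells in the values of the 8 genes was not tested. None of the 8 was called by edgeR (adjusted p = 0.281 to 0.742), where 0.00596% of genes were called, or by DESeq2 (adjusted p = 0.0961 to 0.719), where 3.22% were called and 0.69% were called higher. C1rl, Nrg1 and Sgms2 had an unadjusted p under 0.05 by edgeR, with 8.26% of genes below it in that direction. After Ang II, F10 had the smallest log2 difference between genotypes of the 8 and Met the largest. For F10, sham means were 1.52 CPM in WT and 3.69 CPM in miR-214-/-, and Ang II means were 11.9 and 11.7 CPM. For Met, sham means were 2.38 CPM in WT and 3.58 CPM in miR-214-/-, and Ang II means were 12.1 and 8.16 CPM.

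**Figure D3:**
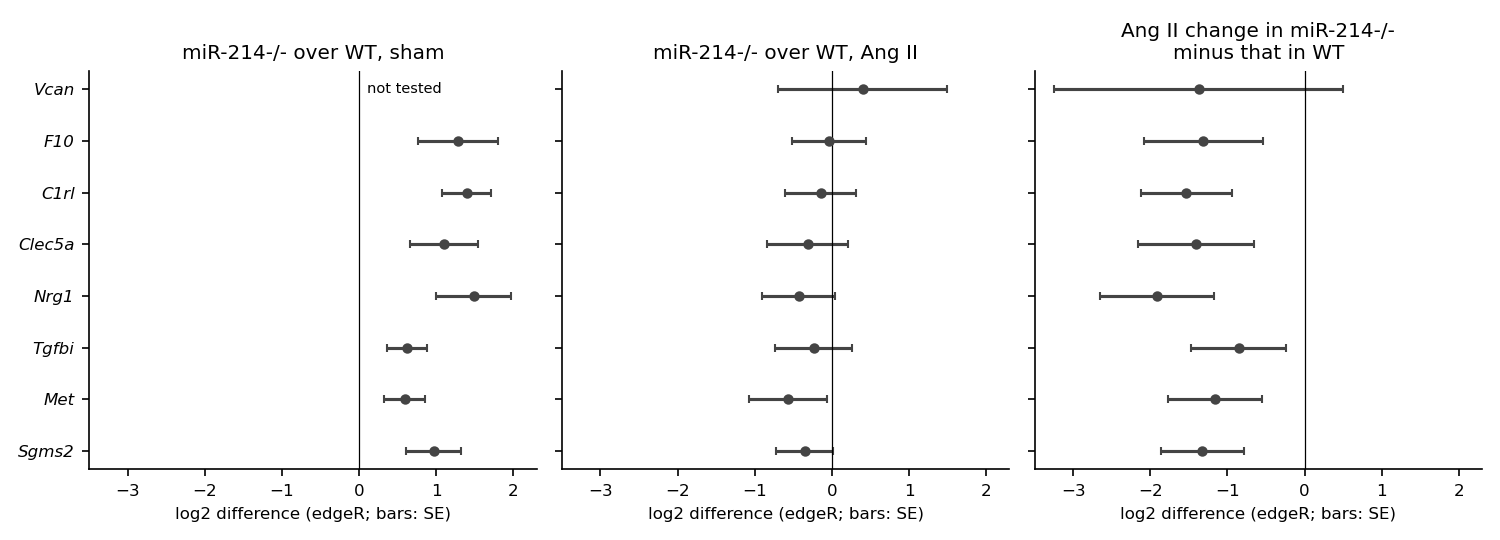
Log2 difference between genotypes (horizontal axis, points with SE bars, edgeR) for the 8 genes in sham, in Ang II, and in the Ang II effect itself. In sham the 7 tested genes lie between 0.59 and 1.48, in Ang II the 8 lie between -0.57 and 0.40, and the differences in effect lie between -0.86 and -1.91, none of them called.

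Because the knockout concerns a microRNA, the 3′ UTRs of the 8 genes were searched for its seed matches. The mature miR-214-3p of mouse, from RefSeq on GRCm38.p6 at chr1:162223438-162223459, is shown with its seed (bases 2 to 8) in capitals. Beside it are the only matches found to CCTGCTG, the letters that pair with the seed. The search took the 3′ UTR of a single transcript per gene, that with the longest coding sequence in GENCODE vM21. The rest of that transcript and other transcripts of the 8 genes were not searched.
miR-214-3p: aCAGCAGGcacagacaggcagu
C1rl, chr6:124510132-124510160, plus strand: gctctcactttCCTGCTGgccctcatcac
Sgms2, chr3:131320942-131320970, minus strand: cctgtgtggacCCTGCTGttccctgttct
Of the 8 genes 2 held a match, C1rl in a 3′ UTR of 1523 bases and Sgms2 in one of 4122 bases, as did 17.5% of 20678 coding genes. None of the 8 held GACAGGC, the match to the seed of miR-214-5p, found in 7.84% of genes. In sham, C1rl and Sgms2 were 1.39 and 0.97 higher in miR-214-/- on the log2 scale, and the 5 tested genes without a match were higher by 1.28 for F10, 1.10 for Clec5a, 1.48 for Nrg1, 0.62 for Tgfbi and 0.59 for Met. The 3′ UTRs searched without a match were 18 bases for F10, 116 for Clec5a, 272 for Nrg1, 601 for Tgfbi, 1919 for Vcan and 2157 for Met. In the shortest of them the lack of a match says little, and regulation of the 8 genes by miR-214 was not tested.

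Per kilobase of exon, which allows genes to be compared with each other, Tgfbi led every group, with 19.6 ± 10.9 CPM per kilobase in WT Ang II and 16.7 ± 6.39 in miR-214-/- Ang II (SD, n = 3). F10 followed with 4.36 ± 2.52 and 4.27 ± 1.26, and Clec5a with 3.18 ± 2.06 and 2.56 ± 0.772. C1rl, Sgms2 and Met lay together, at 1.85, 1.71 and 1.58 in WT Ang II, and lay within each other's SD. Nrg1 was at 0.861 ± 0.5005 and Vcan, with 14462 bases of exon, was the lowest at 0.235 ± 0.216. Vcan had the largest fold and the lowest level of the 8.

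The 8 genes varied together. Pearson's r of log2 CPM over the 12 libraries was 0.73 to 0.98 for the 28 pairs, with a median of 0.91. These libraries fall into sham and Ang II groups that differ by the choice of genes, so r was also computed after each group's mean was subtracted, which left 0.12 to 0.95 with a median of 0.68. Clec5a with Sgms2 had the highest of the latter, at 0.95, followed by C1rl with Sgms2 at 0.92 and C1rl with Clec5a at 0.91. Vcan with Met had the lowest, at 0.12. Both genes of a pair were read from the same 12 libraries, which differ in their cell-type markers and depth.

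Genes most like F10 in r over the 12 libraries, among 13764 genes with a mean log2 CPM above 0, were Nrg1 (r = 0.97), Nlrx1 (0.96), F13a1 (0.95), Tmed10, Plcb1, C1rl, Ugt1a7c, C1galt1c1, Hp and Aldh1b1 (0.93). Within groups r fell to 0.86 for Nrg1, 0.89 for Nlrx1, 0.77 for F13a1 and 0.92 for Tmed10. F13a1, the A subunit of clotting factor XIII, and Hp, haptoglobin, had mean log2 CPM 2.68 and 2.80 higher in WT Ang II than in WT sham, while Tmed10 and Nlrx1 ranged over 0.50 and 1.18 log2 units in all 12 libraries. Among the genes most like Vcan were Ppp1r2 (r = 0.94), Cmpk1 (0.92), Gdi2, Zmpste24, Nlrx1, Bcl3, Cysltr1 and Rab1a (0.90). Most of these were broadly used genes whose own range was small, such as Ppp1r2 at 0.43 and Gdi2 at 0.32 log2 units, and Cysltr1, the receptor of cysteinyl leukotrienes, had the widest range at 2.14. Nlrx1 stood on both lists.

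Beside the 8 genes, the markers of other cells were followed in the same libraries. The 16 monocyte markers had r of 0.81 to 0.97 with the 8 genes over the 12 libraries and 0.48 to 0.94 within groups. Their summed CPM was 1823 to 1994 in WT sham, 2026 to 4835 in WT Ang II, 1720 to 2745 in miR-214-/- sham and 2292 to 3931 in miR-214-/- Ang II. None of the 16 was at 0 in any library. In WT 7 of them rose by edgeR, 1 was lower at an adjusted p under 0.05 but short of the fold threshold, and in miR-214-/- 0 of 16 were called. Among the risers were Chil3 with a log2 fold change of 3.31, F13a1 with 2.92, Fn1 with 2.38, Lyz2 with 2.05 and Ccr2, the chemokine receptor of these cells, with 1.41 (adjusted p = 0.0109, 0.00834, 0.0183, 0.0206 and 0.0291). Ly6c2, at 143 CPM in WT sham and 195 CPM in WT Ang II, had an adjusted p of 0.287 by edgeR. The part of these cells in the levels of the 8 genes was not tested.

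Markers of neutrophils and their precursors rose in WT, 18 of 18, with a median log2 fold change of 3.17. Their sum was 245 to 331 CPM in WT sham and 1346 to 3935 in WT Ang II, and 324 to 1231 and 731 to 3524 CPM in miR-214-/- sham and Ang II. In replicate 3 of miR-214-/- Ang II the sum was 731 CPM, the lowest of that group and below the 1231 CPM of a sham library, and 3 of the 8 genes, Vcan, Tgfbi and Nrg1, were at their highest of the group there. Over the 12 libraries r of the 8 genes with this list was 0.70 to 0.95, and within groups it was 0.08 for Vcan to 0.85 for Sgms2. Macrophage markers, such as Adgre1 and the C1q genes, did not pass in either genotype, 0 of 17, and their sum ran from 285 to 1748 CPM within WT Ang II alone.

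The sum of 17 red-cell markers was 2413 to 4243 CPM in WT Ang II and 449 to 508 in WT sham, with 12 of 17 called higher, and 11 of 12 markers of cycling cells were called higher in WT. In replicates 1, 2 and 3 of WT Ang II the red-cell sum was 4243, 3748 and 2413 CPM, where the 8 genes summed to 213, 57.2 and 146 CPM. Within groups, r of the 8 genes with red-cell markers was -0.54 to -0.08 and with cycling markers -0.67 to 0.10. T cell markers were lower in WT Ang II with an adjusted p under 0.05 for 13 of 16, none of them by a log2 fold change over 1 in size. Basophil and mast cell markers were called higher for 8 of 12 and those of megakaryocytes for 6 of 15 in WT. Dendritic cell markers were called higher for 1 of 13 and NK cell markers lower for 1 of 8. No marker of B cells, plasma cells, non-classical monocytes or stroma was called in WT, although the stromal list had r of 0.62 to 0.84 with the 8 genes, 0.36 to 0.85 within groups, and 6 of its 15 genes, Col3a1, Lum, Pdgfra, Emcn, Ccl19 and Cxcl13, were at 0 in at least 1 library. In miR-214-/- edgeR called no marker of any of the lists, where DESeq2 called Prtn3, Ms4a3 and Gm9733 of the neutrophil and monocyte lists higher, as given above. The part of any of these cells in the levels of the 8 genes was not tested.

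**Figure D4:**
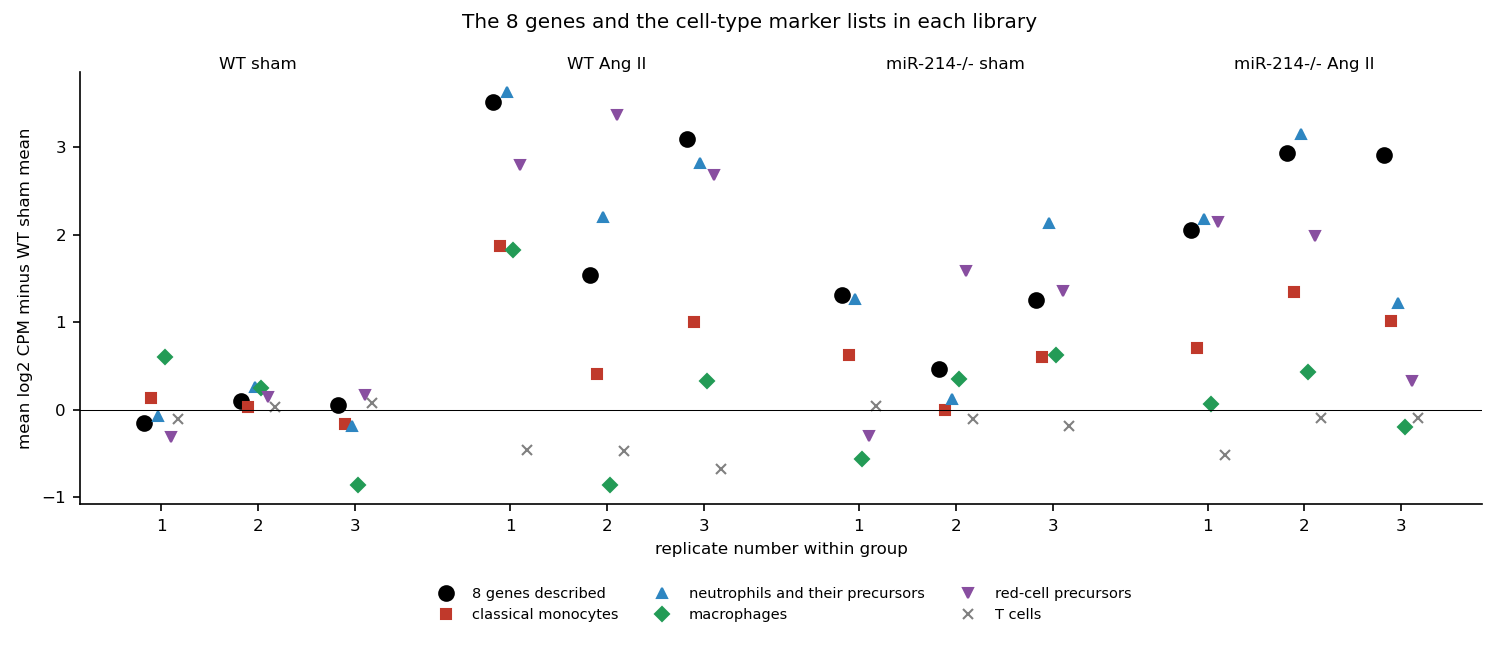
Mean log2 CPM of the 8 genes and of 5 lists of cell-type markers in each library, less its WT sham mean (vertical axis, log2 units), by replicate within the 4 groups. Within WT Ang II the 8 genes and the classical monocyte markers are both lowest in replicate 2. There the red-cell markers are highest by mean log2 CPM, while their summed CPM is highest in replicate 1. In replicate 3 of miR-214-/- Ang II the neutrophil markers are the lowest of that group.

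The genes that act with each of the 8 were taken from lists of known partners, and 7.01% of all genes were called higher and 0.294% lower in WT, and 0% in miR-214-/-. Of 21 tested genes of coagulation, 3 rose in WT and none was called in miR-214-/-. F5, the cofactor of active factor X, rose by 1.99 from 5.64 to 22.0 CPM (adjusted p = 0.0252), F13a1, which crosslinks fibrin, rose by 2.92 from 30.3 to 224 CPM (adjusted p = 0.00834), and Thbd, thrombomodulin, rose by 1.60 from 1.77 to 5.32 CPM (adjusted p = 0.0291), each by edgeR. The enzymes that F10 needs for its γ-carboxylation, Ggcx and Vkorc1, were at -0.13 and -0.02 on the log2 scale, neither called. F7, F3 and F2, the upstream and downstream factors, were low, with 0.383 CPM for F2 in WT sham the highest group mean. Of the receptors, F2rl1 was lower by 0.89 with an adjusted p of 0.0294 by edgeR, short of the fold threshold, and F2r, at 102 CPM in WT sham, was at -0.34. Tfpi, the inhibitor of factor X, was at 0.21, and neither was called.

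Of the partners of versican, 22 were tested in WT and 3 rose. Fn1, fibronectin, rose by 2.38 from 59.9 to 306 CPM (adjusted p = 0.0183), Hmmr, a hyaluronan receptor that is also a mitotic gene, rose by 2.57 (adjusted p = 0.00113), and Selp, the P-selectin of platelets and endothelium, rose by 1.19 (adjusted p = 0.0256), each by edgeR. Cd44, the main hyaluronan receptor of leukocytes, went from 105 to 169 CPM, a log2 change of 0.71 with an adjusted p of 0.00763 by edgeR, below the fold threshold. The other hyalectans, Acan, Bcan and Ncan, were at or near 0, with 0.0241 CPM for Ncan in miR-214-/- Ang II the highest group mean, as were the link protein genes Hapln1 and Hapln2, and of the hyaluronan synthases only Has3 was tested, at -0.21. Enzymes that build the chondroitin sulphate chain were present, such as Chsy1 at 67.0 CPM in WT sham, and of them Csgalnact2 and Chst11 had adjusted p of 0.0152 and 0.0412 by edgeR with log2 changes of 0.76 and 0.58. Versican-cleaving Adamts1, Adamts4, Adamts5 and Adamts9 were low, with 0.436 CPM for Adamts9 in miR-214-/- sham the highest group mean.

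Of 15 tested genes in a list of complement genes and relatives of C1rl, which holds haptoglobin (Hp), 4 rose in WT. C3, the central component, rose by 2.29 from 27.3 to 131 CPM, Hp by 3.02 from 9.58 to 76.1 CPM and C5ar1, the receptor of C5a, by 2.38 (adjusted p = 0.0137, 0.00733 and 0.0160 by edgeR). C1ra, the nearest relative of C1rl and the protease of the C1 complex, was at 0.516 CPM in WT sham and 1.29 CPM in WT Ang II, with a log2 change of 1.33 that did not pass, and C1s1 was at 0.113 and 0.213 CPM. The C1q genes were at 33.9 to 35.3 CPM in WT sham with log2 changes of 0.53 to 0.62, none called.

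Of 22 tested partners and relatives of Clec5a, 6 rose in WT: Trem3 by 2.94, Clec4e by 2.64, Trem1 by 2.63, Clec12a by 1.76, Clec7a by 1.48 and Plcg2 by 1.10 (adjusted p = 0.0113, 0.0074, 0.00762, 0.0399, 0.0492 and 0.0437 by edgeR). Trem1, Trem3, Clec4e and Clec7a code for receptors of myeloid cells and Plcg2 for a phospholipase on their signalling route. Tyrobp, the adaptor through which Clec5a signals, went from 35.2 to 67.1 CPM with a log2 change of 0.96 that did not pass, and the kinase Syk was at 0.74. Hcst, the other adaptor of Clec5a and one that T cells express, was lower by 0.57 (adjusted p = 0.00801 by edgeR), below the fold threshold. In miR-214-/- none of the 22 was called, with Trem1 at 0.21 and Clec4e at 0.11.

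The receptors of Nrg1 were not called. Erbb3 was at 10.2 CPM in WT sham and 9.70 CPM in WT Ang II, a log2 change of -0.05, Erbb2 was at 1.10 and 1.28 CPM, and Erbb4 had no count in any library, as had Nrg3. Of 16 tested genes of this family 1 rose, the related ligand Nrg2, by 1.45 from 0.966 to 2.62 CPM (adjusted p = 0.0263 by edgeR). Adam10, a sheddase, was higher by 0.35 with an adjusted p of 0.0343 by edgeR, below the fold threshold, and Adam17 and Adam19 were at 0.06 and -0.01.

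For Met, 3 of 18 tested partners rose in WT. Hgf, its ligand, rose by 1.25 from 2.75 to 6.45 CPM (adjusted p = 0.0467), Gab1, the docking protein of the receptor, rose by 2.96 from 0.804 to 6.25 CPM (adjusted p = 0.00817), and Hpn, hepsin, a protease that activates the ligand, rose by 2.95 (adjusted p = 0.038), each by edgeR. Mst1r, the nearest relative of Met, went from 0.504 to 4.68 CPM with a log2 change of 3.24 and an adjusted p of 0.063 by edgeR. In miR-214-/- Hgf, Gab1 and Hpn were at 0.31, 0.41 and 0.31, none called.

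Of 26 tested genes of the TGF-β axis, 3 rose in WT, namely Col5a1 by 2.94, the activator of latent TGF-β Thbs1 by 2.24 and the latency protein Ltbp3 by 1.26 (adjusted p = 0.0144, 0.0177 and 0.0359 by edgeR). Tgfb1 itself was at 156 CPM in WT sham and 163 CPM in WT Ang II, a log2 change of 0.09. Lower at an adjusted p under 0.05 were 5 of the 26, all below the fold threshold. They were Tgfbr2 by 0.43, Tgfbr3 by 0.43, Smad3 by 0.36, Smad4 by 0.37 and Smad7, a feedback target, by 0.69 (adjusted p = 0.0129, 0.0227, 0.0348, 0.00947 and 0.00307 by edgeR). Tgfbr1 and Smad2, also on the list, were not among them, and the median log2 fold change of the list was -0.003. Postn, the paralogue of Tgfbi, was at 0.385 and 0.654 CPM and did not pass.

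Of 26 tested genes of sphingomyelin and ceramide, 2 rose in WT, Sphk1, a sphingosine kinase, by 3.21 from 2.72 to 25.1 CPM and the ceramidase Acer3 by 1.21 from 13.4 to 30.4 CPM (adjusted p = 0.0266 and 0.00576 by edgeR). Sgms1, the sister enzyme of Sgms2 in the Golgi, was at 94.9 CPM in WT sham and lower by 0.35 after Ang II (adjusted p = 0.0224 by edgeR), below the fold threshold. None of these genes was called in miR-214-/-, where Sphk1 was at 0.26 and Acer3 at 0.24.

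**Figure D5:**
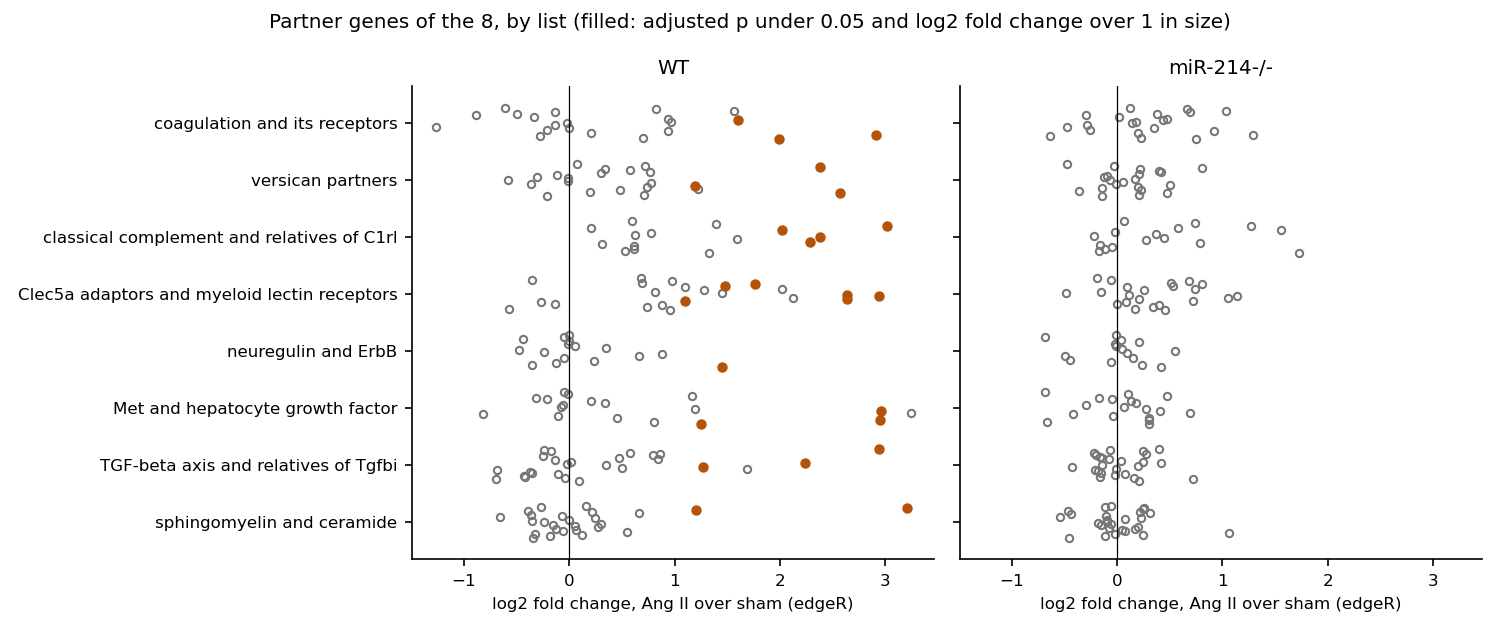
Log2 fold change of Ang II over sham by edgeR (horizontal axis) of each tested partner gene in WT and in miR-214-/-, by list (vertical axis), with filled points for called genes. In WT between 1 and 6 genes of each list are called, all to the right, and in miR-214-/- none is called.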

How the data were processed

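Poly(A) RNA of splenic T cells was sequenced as paired, stranded libraries. Per the labels and methods, the authors trimmed and aligned the reads to GRCm38 and made the deposited table of raw counts per gene with featureCounts of Subread 1.5.2. The strand setting and annotation release are not given in the sources used here. No column went unused (0 columns of no sample), and no row lacked a gene. Of 49315 identifiers, 49056 matched the GRCm38 annotation. None of the 8 genes overlaps a gene on its own strand. On the opposite strand Vcan and Nrg1 each overlap 2 genes, and C1rl and Sgms2 each overlap 1. The highest count of these in any library was 12 for those at Vcan, 5 for that at C1rl and 0 at Nrg1 and Sgms2. An effect of these overlaps on the counts of the 8 genes was not tested.

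Counts were tested with edgeR 4.0.16 (filterByExpr, TMM, quasi-likelihood test, Benjamini-Hochberg adjustment over all genes tested) in R 4.3.3. Calls needed an adjusted p under 0.05 together with a log2 fold change over 1 in size, and an interaction at the adjusted p alone. The SE given with an edgeR value is the size of the log2 fold change divided by the square root of its F statistic. It is thus an approximation and not an output of edgeR. DESeq2 1.42.0 was an alternative, as were no filter, a minimum of 10 counts in every library, RLE scaling or library size alone, an adjusted-deviance fit, a prior count of 0.5 in place of 2 for log2 CPM, 1 fit over all groups, the replicate block and leaving out each library. The code was tested on simulated counts. CPM per kilobase used exon lengths of the annotation. Nothing shows whether p-values measure more than the spread between these 12 mice.

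The 8 genes and all lists were chosen with earlier results of these data known, and the microRNA search and the promoters printed were chosen after the values were seen. Named genes were the 8, the other genes called in both genotypes, the 10 genes most like Vcan and F10, and from each list the nearest partners and up to 4 with the largest called change in WT. Further list genes, such as the Smads and the marker genes, were named after their values were seen. Promoters are from RefSeq (GRCm38.p6) and 3′ UTRs from GENCODE vM21. The hairpin of miR-214 had no count in these poly(A) libraries and does not check the knockout. Some genes that met the naming rule are not reported here.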

Additional observations from a re-analysis of the deposited data

How the results depend on the processing

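For Ang II against sham, the log2 fold changes of the 8 genes stayed positive in all 111 values from alternatives in WT and in all 111 in miR-214-/-. The genes were chosen on these contrasts and their groups did not overlap in either genotype. The sign could therefore hardly turn, and its stability is no support. In sham all 98 stayed positive, and all 151 interaction values stayed negative, but none of the sham or interaction values was called. The sham and interaction values are not independent of the choice either. By DESeq2 there were 51 genes called for Ang II in miR-214-/-, among them the 8, and 45 for genotype in sham, 21 for genotype in Ang II and 444 for the interaction, against 0, 3, 0 and 1 by edgeR. With no filter 3 genes were called for Ang II in miR-214-/- and 9 for genotype in sham, and 1 fit over all groups gave 0 in sham. When single libraries were left out, WT calls ranged from 564 to 1338 genes (1169 with all), and 3 to 8 of the 8 genes, with 3 without WT sham replicate 1, 2 or 3 or without WT Ang II replicate 3. The same step gave 0 to 1 genes for Ang II in miR-214-/-, 0 to 30 for genotype in sham, 0 to 1 for genotype in Ang II and 0 to 919 for the interaction, the latter without replicate 1 of miR-214-/- Ang II. For the 7 genes in sham the median ranged from 0.74 to 1.47 and that of the 8 in Ang II from -0.64 to 0.25. In the latter comparison the sign turned for single genes, with ranges of -0.13 to 1.34 for Vcan, -0.41 to 0.46 for F10, -0.52 to 0.32 for C1rl, -0.71 to 0.29 for Clec5a, -0.81 to 0.0679 for Nrg1, -0.61 to 0.21 for Tgfbi, -0.95 to 0.0686 for Met and -0.66 to 0.0207 for Sgms2. Replicate numbers did not pair the libraries, since 7 of 18 correlations between same-numbered libraries were above 0.1 (range -0.56 to 0.34) and 0 libraries correlated best with their own number in every other group. With the replicate block, genotype in sham gave 0 genes, Ang II in WT gave 966 genes and 6 of the 8, and in Ang II the differences of F10 and C1rl between genotypes were 0.12 and 0.0156. The cause of these shifts was not tested. Vcan had 0 to 8 counts per sham library, which limits how well its fold is known.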
